A study of Mus musculus with 24 samples.

Results

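The genes described here are 8 genes of the Schwann and glial lineage, Sox10, Foxd3, Cdh19, Erbb3, Fabp7, S100b, Gldn and Mbp, among the 56748 genes of a table of RNA-seq read counts from the mouse molar. They were chosen by name, from knowledge of the lineage and with earlier results of these data known, and were followed across all 24 libraries. Mesenchymal cells were isolated with dispase II from tooth germs of the mandibular first molar of ICR mouse embryos, at the cap stage (E13) and the bell stage (E15). The 8 groups of 3 libraries were Cap-W and Bell-W, which the labels call whole tooth germ and the study calls undivided dental mesenchyme, Cap-L, Cap-B, Bell-L and Bell-B, in which the germ was first divided with a fine needle into a lingual and a buccal part, and the cultured groups, Cap-L+2D with its buccal counterpart Cap-B+2D, made from cap stage parts kept for 2 days in vitro. The labels give no mutation and no added factor for any group. The methods give 36 embryos from 3 pregnant mice and speak both of triplicates and of 2 biological replicates. Nothing in the labels says that the 3 libraries of a group came from separate animals, so the p-values measure only the spread between these libraries, which may be technical.

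Schwann cells are the glia of peripheral nerves and arise from the neural crest. Crest-derived Schwann cell precursors travel along growing axons, depend on neuregulin from those axons, pass through an immature stage and later ensheath or myelinate the axons, and in the tooth, glial cells along nerves are also known as a source of some pulp cells and odontoblasts. The molar germ is innervated late, so that around the cap and bell stages nerve fibres lie around the germ and not inside the dental papilla. Glial genes are seldom exclusive to glia, and several of the 8 genes are also used by cartilage, muscle or epithelium.

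The members fall into 4 roles. The transcription factors are Sox10 (ENSMUSG00000033006, chromosome 15, 79039108 to 79049440 in GRCm39, minus strand), which is required for all peripheral glia and for melanocytes, and Foxd3 (ENSMUSG00000067261, chromosome 4, 99544536 to 99546859, plus strand), a forkhead factor of premigratory crest and glial precursors. The precursor stage is represented by Cdh19 (ENSMUSG00000047216, chromosome 1, 110816056 to 110905314, minus strand), a cadherin of Schwann cell precursors, Erbb3 (ENSMUSG00000018166, chromosome 10, 128403392 to 128425521, minus strand), the neuregulin receptor that signals as a pair with Erbb2, and Fabp7 (ENSMUSG00000019874, chromosome 10, 57660977 to 57664546, plus strand), a fatty acid binding protein of Schwann cell precursors and of radial glia in the brain. S100b (ENSMUSG00000033208, chromosome 10, 76089687 to 76096993, plus strand) encodes a calcium binding protein of immature and mature Schwann cells and is also made by chondrocytes. The late genes are Gldn (ENSMUSG00000046167, chromosome 9, 54193770 to 54249070, plus strand), whose product gliomedin helps to gather sodium channels at the node of Ranvier, and Mbp (ENSMUSG00000041607, chromosome 18, 82493271 to 82603762, plus strand), which encodes myelin basic protein and, from another promoter, Golli proteins found outside myelin. In the deposited annotation 3.83% of the exon bases of Foxd3 are shared with Gm55933, and no exon base of the other 7 members is shared with another gene.

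The libraries held 20581720 to 39266497 counts (median 27677163.5), so that the 3 counts taken here as the detection floor corresponded to between 0.0764 and 0.146 CPM (counts per 1000000, TMM-normalized over the 24 libraries). Genes of dental mesenchyme were high throughout, with a summed level of the list between 4378 and 12327 CPM and no gene of it at 0 in any group. Markers of other cell types also differed between the groups. The summed level of 10 skeletal muscle genes ran from 9.46 to 20.2 CPM in Cap-W, Cap-L and Bell-W, from 113 to 122 CPM in Bell-L, from 217 to 228 CPM in Cap-B, from 263 to 282 CPM in Cap-L+2D, from 828 to 838 CPM in Bell-B and from 3256 to 3356 CPM in Cap-B+2D. No gene of that list was at 0 in any group, and 4 of the 10 were under 0.5 CPM in Cap-W, Cap-L and Bell-W. The summed level of 10 epithelium genes lay between 90.4 and 92.4 CPM in Cap-B+2D and between 327 and 785 CPM in all other libraries except Bell-W replicate 3, where it was 1898 CPM, again with no gene at 0 in any group. That library stood apart from the other 2 of its group, so results that rest on it are given with and without it. In these bulk samples, fewer cells of a type and less RNA per cell cannot be told apart.

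All 8 genes were detected, at low levels. Per kilobase of exon, which allows genes to be compared, the highest group means were 15.6 CPM per kb for S100b in Bell-L, 15.5 for Erbb3 in Cap-B+2D and 11.4 for Fabp7 in Bell-W, the last carried by 1 library. Sox10 reached 4.14 CPM per kb in Cap-B, Gldn 2.85 in Bell-W and Mbp 1.10 in Bell-L. Foxd3 and Cdh19 were the lowest, with highest group means of 1.03 CPM per kb in Cap-B and 0.560 in Bell-B. The members did not share 1 order of the groups, as the plot of all libraries shows.

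**Figure D1:**
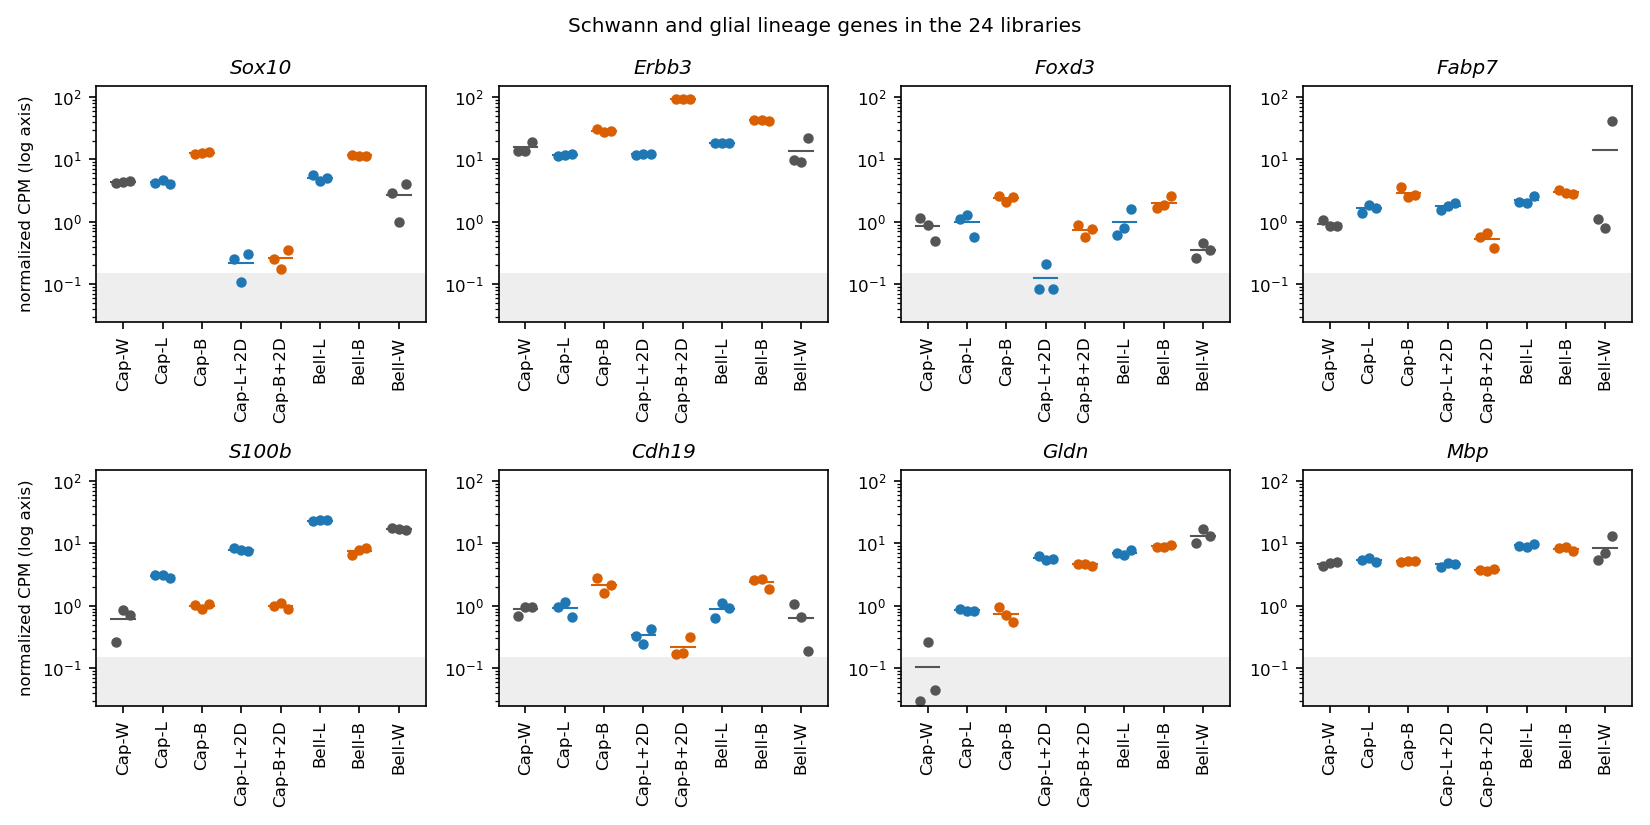
Normalized CPM (log axis) of the 8 genes in each of the 24 libraries, with points for libraries and a short line for the mean of the 3 libraries of a group; blue marks lingual, orange buccal and grey undivided samples, the grey band covers the floor of 3 counts, up to 0.146 CPM, and the Cap-W library with no Gldn count is drawn at the bottom edge. Sox10, Foxd3 and Cdh19 share a buccal excess and a drop in culture, S100b and Gldn are highest at the bell stage, Erbb3 is highest in Cap-B+2D, and 1 Bell-W library stands apart for Fabp7.

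At the cap stage the buccal part held more of the early glial transcripts. Sox10 measured 12.2, 12.7 and 13.0 CPM in the 3 Cap-B libraries and 4.18, 4.74 and 4.06 CPM in the 3 Cap-L libraries. Every buccal library lay well above every lingual one, and the log2 fold change, buccal over lingual, was 1.57 (standard error 0.091, edgeR adjusted p = 8.77e-11). Foxd3 measured 2.57, 2.09 and 2.52 CPM in Cap-B and 1.12, 1.26 and 0.564 CPM in Cap-L, again without overlap, for a log2 fold change of 1.28 (standard error 0.22, adjusted p = 0.000133). Cdh19 measured 2.80, 1.59 and 2.13 CPM in Cap-B and 0.972, 1.15 and 0.670 CPM in Cap-L. The lowest buccal library was still above the highest lingual one, and the log2 fold change was 1.21 (standard error 0.24, adjusted p = 0.000391).

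The receptor gene Erbb3 measured 30.8, 27.6 and 28.3 CPM in Cap-B and 11.4, 11.7 and 12.3 CPM in Cap-L. The groups were far apart for their spread, with a log2 fold change of 1.32 (standard error 0.068, adjusted p = 1.53e-11). Fabp7 was higher in all 3 Cap-B libraries, at 3.65, 2.51 and 2.68 CPM, than in the Cap-L libraries, at 1.40, 1.85 and 1.66 CPM. Its log2 fold change was 0.85 (standard error 0.18, adjusted p = 0.00077), and this call was lost when all 24 libraries shared 1 fit (adjusted p = 0.56).

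S100b went the other way. It measured 3.06, 3.17 and 2.82 CPM in Cap-L and 1.04, 0.878 and 1.06 CPM in Cap-B, so that each lingual library held more than any buccal one, and the log2 fold change, buccal over lingual, was -1.58 (standard error 0.17, adjusted p = 5.44e-07). The late genes showed no call: Gldn differed by -0.18 (95% interval -0.70 to 0.34, adjusted p = 0.63) and Mbp by -0.04 (95% interval -0.24 to 0.17, adjusted p = 0.82) on the log2 scale, and the libraries of the groups overlapped for both. In all, 5 of the 8 members were called higher and 1 lower in the buccal part, where 10.4% and 7.1% of the 20653 genes tested were called in those directions. The median log2 fold change was 1.03 over the 8 members and -0.01 over all genes tested.

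Other genes of the lineage were read from 5 lists of 34 genes in all. Of the 14 genes of Schwann cell precursors and immature Schwann cells 13 were tested. In Cap-B 12 of them were higher and 1 lower, against 10.4% and 7.1% of all genes tested. Among the largest differences were those of Dhh (log2 fold change 3.10), the Hedgehog ligand of Schwann cells, Ngfr (-1.97), the low-affinity neurotrophin receptor that dental mesenchyme also makes, and Lgi4 (1.69), a secreted Schwann cell protein. Dhh shares 25.16% of its exon bases with other genes, Lgi4 44.92%, Tfap2a 14.64% and Sox8 10.55%, so that their counts are uncertain. Of the neuregulin genes, Erbb4 (2.87) and the ligand gene Nrg1 (1.86) were higher and Erbb2 was not called. Of the 9 myelination genes, Mal (2.75) and Mag (1.65) were higher, and of the 6 crest and glial regulators only Sox8 (0.52). Dhh, Mal and Mag held 8, 16 and 23 summed counts in Cap-L and passed the filter only through Cap-B. They had to be higher there, and their values are descriptions. The summed level of the skeletal muscle genes was also higher in Cap-B, with all 10 called, and 9 of 10 epithelium genes and 8 of 9 tested cartilage genes were called lower. Their part in the differences of the members was not tested.

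At the bell stage, where the question was again whether the parts differ, Sox10, Cdh19, Foxd3 and Erbb3 were higher in the buccal part. Sox10 measured 12.0, 11.3 and 11.4 CPM in Bell-B and 5.72, 4.48 and 5.01 CPM in Bell-L, without overlap, with a log2 difference of 1.19 (standard error 0.091, adjusted p = 1.56e-14). Cdh19 measured 2.59, 2.70 and 1.89 CPM in Bell-B and 0.648, 1.09 and 0.928 CPM in Bell-L. Here too every buccal library was the higher one, with a log2 fold change of 1.41 (standard error 0.21, adjusted p = 3.23e-07). Foxd3 measured 1.67, 1.89 and 2.56 CPM in Bell-B and 0.610, 0.800 and 1.59 CPM in Bell-L. The highest lingual library came close to the lowest buccal one, and the log2 fold change of 0.99 (standard error 0.23, adjusted p = 0.00061) missed the threshold when all 24 libraries shared 1 fit (adjusted p = 0.051).

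Erbb3 measured 42.6, 42.8 and 40.7 CPM in Bell-B and 18.3, 18.2 and 18.5 CPM in Bell-L, a log2 fold change of 1.20 (standard error 0.052, adjusted p = 1.21e-22). S100b measured 6.42, 7.94 and 8.44 CPM in Bell-B and 23.0, 23.3 and 23.3 CPM in Bell-L. The lingual libraries were thus the higher ones at this stage as well, with a log2 fold change of -1.61 (standard error 0.074, adjusted p = 1.02e-21). Fabp7 (log2 fold change 0.42, adjusted p = 0.024) and Gldn (0.33, adjusted p = 0.0023) passed the p threshold but not the fold of 0.5, and Mbp passed neither (-0.19, adjusted p = 0.081). The buccal libraries did not overlap the lingual ones for any of these 3 genes, but the share of all genes without overlap was not counted. The count was 4 of 8 members higher and 1 lower in the buccal part, against 6% and 6.88% of the 21181 genes tested, and the medians were 0.71 over the members and 0.00 over all genes.

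Of the 34 other glial genes, 14 were called higher and 4 lower in Bell-B, against 6% and 6.88% of all genes tested. Among precursor and immature Schwann genes Gjc3 (log2 fold change 1.38), a glial connexin, Adgrg6 (1.00), a receptor required for Schwann cell myelination, and Dhh (0.97) were among those called higher. Nrg1 (2.18) and Erbb4 (1.64) were higher again. The regulators were split, with Sox8 (1.46) higher and Pax3 (-2.50) and Tfap2a (-0.82) lower. All 10 skeletal muscle genes and 5 of 9 tested neuron genes were called higher in Bell-B, and 4 of 10 epithelium genes lower. Their part was not tested.

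Whether the difference between the parts changed with the stage was asked with an interaction term over the 12 uncultured libraries of the parts. It was called for Sox10 alone among the members, whose excess in the buccal part was smaller at the bell stage by -0.38 on the log2 scale (standard error 0.13, adjusted p = 0.026), and this call held in 11 of 19 alternative fits. For the others the estimates ran from -0.43 for Fabp7 (95% interval -0.89 to 0.02) to 0.51 for Gldn (95% interval -0.01 to 1.03). Over all 21931 genes tested the term was called toward the buccal part for 14.5% and toward the lingual part for 18%. Dhh (-2.14), Gap43 (-1.41), a growth-associated protein of axons and immature Schwann cells, and Ngfr (1.25) were among the 10 called of the 14 precursor and immature Schwann genes. The Dhh value rested on 8 summed counts in Cap-L.

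**Figure D2:**
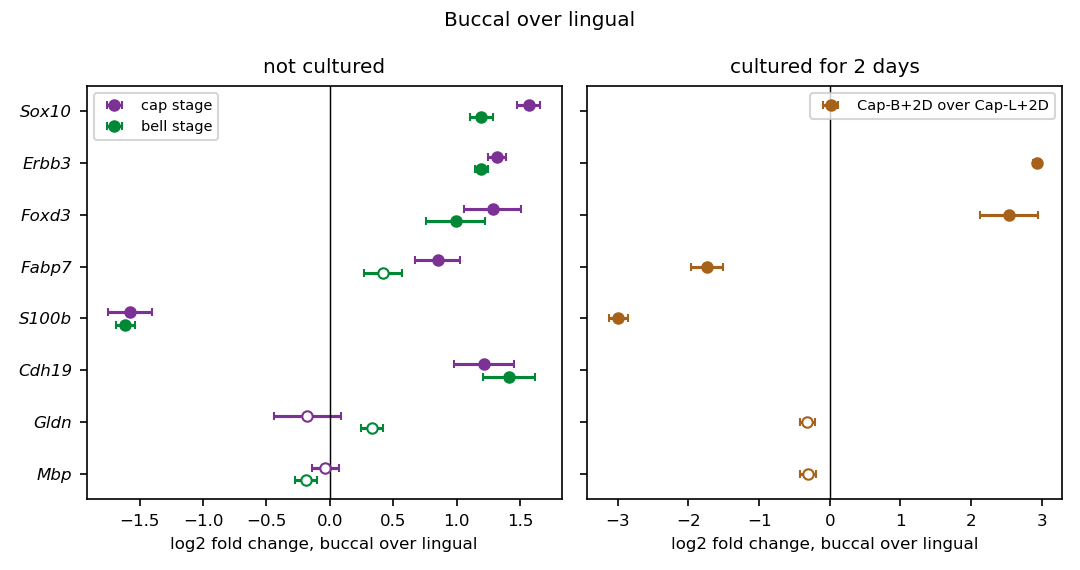
Log2 fold change, buccal over lingual, of the 8 genes at the cap and bell stages and after 2 days of culture; bars are standard errors of the edgeR fit, filled points were called and open points were not, and Sox10 and Cdh19 have no cultured point because their counts were too low to be tested there. Sox10, Erbb3, Foxd3 and Cdh19 lie to the right and S100b to the left at both stages, and Fabp7 crosses from 0.85 at the cap stage to -1.74 after culture.

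From the cap to the bell stage the 2 genes that changed most were S100b and Gldn, in each of the 3 kinds of sample. S100b rose from 3.06, 3.17 and 2.82 CPM in Cap-L to 23.0, 23.3 and 23.3 CPM in Bell-L, a log2 fold change of 2.95 (standard error 0.084, edgeR adjusted p = 1.29e-19). Buccal libraries rose from 1.04, 0.878 and 1.06 CPM to 6.42, 7.94 and 8.44 CPM (log2 fold change 2.92, standard error 0.16, adjusted p = 7.14e-17). The undivided libraries held 0.265, 0.860 and 0.708 CPM at the cap stage and 17.7, 17.2 and 16.2 CPM in Bell-W. In Cap-W these were 5, 26 and 16 counts, and S100b did not pass the filter through Cap-W alone. Its fitted log2 fold change in the undivided mesenchyme, 4.73 (standard error 0.34), is given as a description. No bell library overlapped the cap libraries of its kind.

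Gldn rose from 0.900, 0.813 and 0.811 CPM in Cap-L to 7.06, 6.44 and 7.86 CPM in Bell-L (log2 fold change 3.10, standard error 0.15, adjusted p = 4.92e-15). Its buccal levels rose from 0.947, 0.711 and 0.552 CPM to 8.88, 8.83 and 9.30 CPM (log2 fold change 3.62, standard error 0.15, adjusted p = 6.09e-20). Every library of the bell stage parts was thus far above every library of the cap stage parts. In the undivided mesenchyme the Cap-W libraries held 0, 8 and 1 counts, while the Bell-W libraries held 273, 405 and 407. Gldn passed the filter there through Bell-W alone, so it had to differ. Its fitted log2 fold change was 6.71 (standard error 0.62), from 6.26 to 8.81 when single libraries were left out, and is given as a description.

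The promoters of S100b and Gldn are shown because these 2 genes rose together with stage. Entries were at hand for 4 of the members, Foxd3, Fabp7, S100b and Gldn. The sequences are the 250 bases before the RefSeq gene start in GRCm38.p6, at chr10:76253586-76253835 (plus strand) for S100b and chr9:54286236-54286485 (plus strand) for Gldn, written 5′ to 3′. Capitals mark the letters CCAAT or their complement ATTGG, chosen after the sequences were seen.

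S100b: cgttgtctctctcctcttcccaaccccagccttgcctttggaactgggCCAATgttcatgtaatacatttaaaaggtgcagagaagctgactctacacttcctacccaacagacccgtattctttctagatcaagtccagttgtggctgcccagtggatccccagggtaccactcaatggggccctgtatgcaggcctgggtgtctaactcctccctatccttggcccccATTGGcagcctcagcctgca
Gldn: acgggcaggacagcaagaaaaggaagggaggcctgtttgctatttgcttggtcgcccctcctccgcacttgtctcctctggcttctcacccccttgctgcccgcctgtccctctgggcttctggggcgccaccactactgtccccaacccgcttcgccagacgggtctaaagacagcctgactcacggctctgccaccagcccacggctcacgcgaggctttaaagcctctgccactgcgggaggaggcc

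The CCAAT letters occurred at 2 places in the S100b window and at none in the Gldn window, and the windows held 53.6% and 63.6% G and C. The same letters, on either strand, were in 33.8% of 32851 promoter windows of the same length. The letters ACAAAG and ACAATG, the core that SOX proteins bind, were in 16.5% and 10.7% of those windows on either strand, and in none of the windows of Foxd3, Fabp7, S100b and Gldn. A match is only a match of letters, and its absence says nothing of the factor.

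Mbp and Erbb3 rose modestly with stage in both parts. Mbp went from 5.36, 5.89 and 4.97 CPM in Cap-L to 9.12, 8.84 and 9.91 CPM in Bell-L (log2 fold change 0.79, standard error 0.095, adjusted p = 1.51e-07). On the buccal side it went from 5.10, 5.18 and 5.32 CPM to 8.39, 8.65 and 7.51 CPM (log2 fold change 0.65, standard error 0.096, adjusted p = 1.06e-06). For both parts the bell libraries were all above the cap libraries. Erbb3 rose by 0.65 in the lingual part (standard error 0.067, adjusted p = 1.05e-08) and by 0.54 in the buccal part (standard error 0.048, adjusted p = 3.74e-11), on the log2 scale.

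Sox10, Foxd3, Cdh19 and Fabp7 showed no call with stage in the parts. The log2 fold changes of Sox10 were 0.24 in the lingual part (95% interval -0.01 to 0.48) and -0.13 in the buccal part (95% interval -0.28 to 0.01). Foxd3 gave 0.05 (95% interval -0.57 to 0.66) and -0.23 (-0.58 to 0.11), and Cdh19 gave -0.06 (-0.58 to 0.45) and 0.14 (-0.22 to 0.51). Fabp7 was higher in every Bell-L than in every Cap-L library, by 0.45, below the fold threshold (adjusted p = 0.034), and gave 0.02 in the buccal part (95% interval -0.28 to 0.32). The count was 4 of 8 members called higher and 0 lower in each part. Over all genes the calls were 14.2% higher and 5.78% lower of 21425 tested in the lingual part, and 12% higher and 6.73% lower of 21992 tested in the buccal part. The members' medians were 0.55 and 0.34, and those of all genes 0.00 in both parts. The epithelium genes were also called higher with stage, 4 of 10 in the lingual and 8 of 10 in the buccal part, and so were all 10 skeletal muscle genes in both. Their part was not tested.

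In the undivided mesenchyme S100b and Gldn were called higher. Neither passed the filter without Bell-W, where both are high, so these calls are descriptions. No other member was called, where 10.3% of the 20940 genes tested were called higher and 4.21% lower. The median over the members was 0.32, and over all genes -0.03. Fabp7 measured 1.06, 0.860 and 0.841 CPM in Cap-W and 1.11, 0.785 and 40.8 CPM in Bell-W. A single bell library was high, and the other two lay close to the cap libraries. The log2 fold change of 3.94 was not called (standard error 1.5, adjusted p = 0.12), and without Bell-W replicate 3 it was 0.05. Without that library the fitted values were 4.77 for S100b and 6.73 for Gldn, and no further member was called. Erbb3 moved from -0.20 to -0.71, Mbp from 0.84 to 0.36, Cdh19 from -0.46 to -0.01 and Sox10 from -0.71 to -1.14. In that library Mbp was 13.3 CPM (5.33 and 6.90 in the other Bell-W libraries), Erbb3 21.8 CPM (9.81 and 9.25), and Cdh19 0.191 CPM (1.07 and 0.661). Genes of central nervous tissue, picked after their values were seen, stood out in it too, with Ncan, a proteoglycan of brain matrix, at 27.5 CPM against at most 2.47 CPM in the other 23 libraries, and Mapt, an axonal protein gene, at 41.5 CPM against at most 3.07. The part of such cells in the Fabp7 value was not tested.

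Sox10 measured 2.89, 0.991 and 4.05 CPM in Bell-W and 4.25, 4.30 and 4.43 CPM in Cap-W. The bell libraries were spread over a wide range below the cap libraries, and the log2 fold change of -0.71 was not called (95% interval -1.60 to 0.19). Foxd3 was likewise lower in every Bell-W library, by -1.26 without a call (95% interval -2.16 to -0.36, adjusted p = 0.11). It held 7, 11 and 11 counts in Bell-W and was tested through Cap-W, so its value is a description.

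Of the 34 other glial genes, 16 were called higher with stage in the lingual part and 1 lower, 10 higher and 3 lower in the buccal part, and 9 higher and 2 lower in the undivided mesenchyme. Over all genes tested, the shares higher and lower were 14.2% and 5.78%, 12% and 6.73%, and 10.3% and 4.21%, in that order. In the lingual part Dhh (log2 fold change 2.18), Art3 (1.67) and Lgi4 (1.00) were among the precursor and immature Schwann genes called higher. Mal (2.49), Mag (1.54) and Pmp22 (1.22), a myelin protein gene that mesenchyme also uses, were the 3 called myelination genes there. Dhh, Art3, Mal and Mag held 8, 24, 16 and 23 summed counts in Cap-L. They passed the filter through the other groups of the fit, and their values are descriptions. Pax3 fell by -0.90 in the lingual part and by -3.62 in the buccal part. In the undivided mesenchyme its fitted value was -5.56. It held 10 summed counts in Bell-W and was tested there through Cap-W, so that value is a description. Sox8 rose in all 3 kinds of sample, by 0.86, 1.81 and 1.49. So did Nrcam, a cell adhesion molecule that binds gliomedin at the node, by 1.77, 1.65 and 0.79. Nfasc, the other node partner in the list, was not called in any of them.

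Culture for 2 days was compared with the cap stage parts from which the cultures were started, in the same fit of 9 libraries per side as the comparison with stage, so that both comparisons share the cap libraries. Sox10 fell from 4.18, 4.74 and 4.06 CPM in Cap-L to 0.250, 0.107 and 0.309 CPM in Cap-L+2D, which were 6, 3 and 11 counts. On the buccal side it fell from 12.2, 12.7 and 13.0 CPM to 0.253, 0.176 and 0.351 CPM, which were 9, 5 and 11 counts. All cultured libraries were thus near the floor of 3 counts, whichever side they came from. The fitted log2 fold changes were -4.24 (standard error 0.23) and -5.60 (standard error 0.15). From the summed counts the level before culture was 19.1 times that after it in the lingual part (95% interval 12.2 to 31.6, counting error only) and 48.3 times in the buccal part (32.5 to 75.0).

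Cdh19 and Foxd3 fell with Sox10. Cdh19 went from 0.972, 1.15 and 0.670 CPM in Cap-L to 0.333, 0.249 and 0.422 CPM in Cap-L+2D (log2 fold change -1.46, standard error 0.32). On the buccal side it went from 2.80, 1.59 and 2.13 CPM to 0.169, 0.176 and 0.319 CPM (log2 fold change -3.30, standard error 0.30). Before culture Cdh19 was higher in the buccal part, and after it the range of the buccal libraries reached below that of the lingual ones. Foxd3 went from 1.12, 1.26 and 0.564 CPM in Cap-L to 0.0832, 0.213 and 0.0843 CPM in Cap-L+2D, which were 2, 6 and 3 counts (log2 fold change -2.96, standard error 0.49). From the summed counts its level before culture was 7.99 times that after it (95% interval 4.27 to 16.6, counting error only). Buccal Foxd3 stayed measurable, at 0.901, 0.563 and 0.766 CPM, and its log2 fold change was -1.69 (standard error 0.21, adjusted p = 1.87e-08). In culture, Sox10, Cdh19 and lingual Foxd3 were too low to pass the filter on low counts. They were tested through the uncultured libraries, so they had to be lower in culture, and their fitted values are descriptions.

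Erbb3 did not follow them. It measured 11.9, 12.2 and 12.3 CPM in Cap-L+2D, which overlapped Cap-L (log2 fold change 0.04, 95% interval -0.10 to 0.17). Its buccal level rose from 30.8, 27.6 and 28.3 CPM to 91.8, 93.0 and 94.2 CPM, a log2 fold change of 1.65 (standard error 0.045, adjusted p = 1.69e-25), the highest levels of any library. All 10 skeletal muscle genes were called higher in culture on both sides, and their part in the Erbb3 change was not tested.

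Fabp7 gave 1.54, 1.78 and 1.97 CPM in Cap-L+2D, overlapping Cap-L (log2 fold change 0.10, 95% interval -0.25 to 0.45), and fell in the buccal part from 3.65, 2.51 and 2.68 CPM to 0.563, 0.668 and 0.383 CPM (log2 fold change -2.48, standard error 0.22, adjusted p = 5.91e-12). Of the 10 epithelium genes, 9 were called lower there too, with a median of -2.70, and their part in the Fabp7 fall was not tested. S100b rose in the lingual part to 8.32, 7.79 and 7.53 CPM (log2 fold change 1.37, standard error 0.098, adjusted p = 5.35e-12). Buccal S100b stayed at 0.985, 1.09 and 0.894 CPM, which overlapped Cap-B (log2 fold change -0.05, 95% interval -0.51 to 0.42). Its rise was thus seen on the lingual side alone, where 5 of 9 tested cartilage genes were also called higher, against 4 of 9 on the buccal side, and the part of cartilage in it was not tested.

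Gldn rose on both sides, to 6.33, 5.40 and 5.59 CPM in Cap-L+2D (log2 fold change 2.76, standard error 0.15, adjusted p = 3.52e-14) and to 4.76, 4.75 and 4.41 CPM in Cap-B+2D (2.63, standard error 0.17, adjusted p = 3.26e-15). Mbp was lower in every cultured library than in the uncultured libraries of its side, by -0.24 in the lingual part, which is below the fold threshold (adjusted p = 0.048). In the buccal part its log2 fold change of -0.51 (standard error 0.11, adjusted p = 0.000151) was just past that threshold, and the call held in 8 of 16 alternative fits. In all, 2 members were called higher and 3 lower in the lingual part, against 19.6% and 15.9% of the 21425 genes tested, and 2 higher and 5 lower in the buccal part, against 17.9% and 16.6% of 21992. The 3 lower in the lingual part were Sox10, Cdh19 and Foxd3, and the 5 in the buccal part included Sox10 and Cdh19, which had to be lower. The medians over the members were -0.10 and -1.10, and over all genes -0.03 and -0.02.

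**Figure D3:**
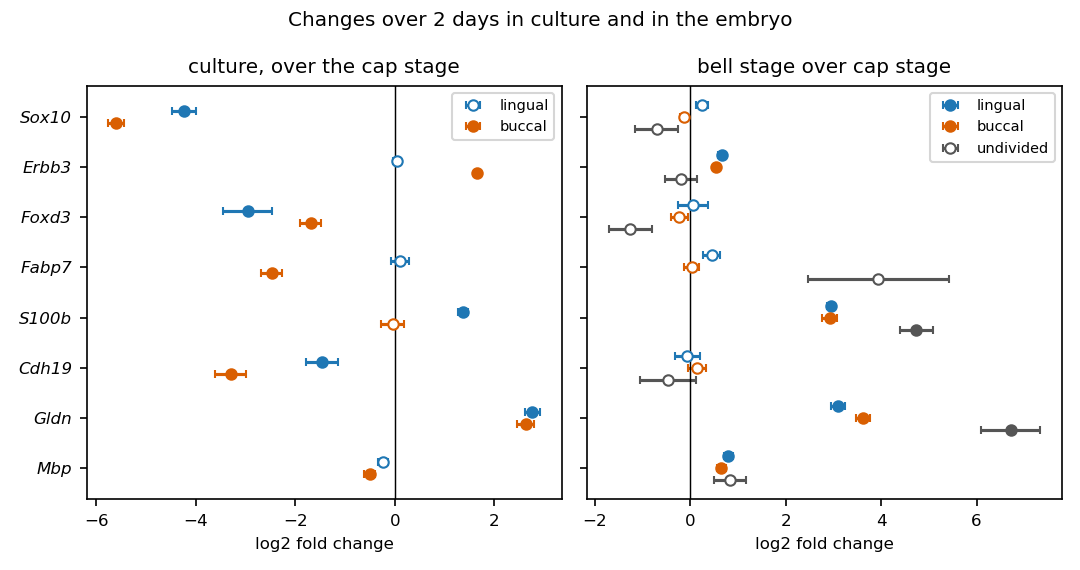
Log2 fold changes of the 8 genes after 2 days of culture over the cap stage (left) and of the bell stage over the cap stage (right), for lingual, buccal and undivided samples; bars are standard errors of the edgeR fit, and filled points were called while open points were not. Gldn rose under both, Sox10 changed by -4.24 and -5.60 in culture and showed no call with stage, and the undivided Fabp7 estimate of 3.94 has the widest bar.

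Of the 34 other glial genes, 9 were called higher and 6 lower after culture in the lingual part, and 8 higher and 14 lower in the buccal part. Over all genes tested, 19.6% were called higher and 15.9% lower in the lingual part, and 17.9% and 16.6% in the buccal part. Most of the buccal losses, 9, were among the 14 precursor and immature Schwann genes, among them Gjc3 (65 summed counts before culture and 3 after it), Dhh (log2 fold change -2.86) and Lgi4 (-1.88). On the lingual side Gjc3 (-2.25) and Adgrg6 (-1.26) were among the 4 called lower. After culture, buccal Dhh and lingual Gjc3 held 10 summed counts each. These 2 genes and buccal Gjc3 were tested through the uncultured libraries, so their values are descriptions. Egr2, a transcription factor of myelination that is also an early response gene, rose by 1.26 and 1.33, and Pmp22 by 1.35 and 1.07, in the lingual and buccal parts. Mal had 230 summed counts in Cap-L+2D and none in Cap-B+2D, after 16 and 84 in the cap stage parts. Its product is also found in epithelia, and 6 of 10 epithelium genes in the lingual and 9 of 10 in the buccal part were called lower in culture. Nrg1 rose on both sides, by 1.52 and 1.17.

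Between the cultured parts, 6 of the 8 members could be tested, since Sox10 and Cdh19 did not pass the filter. Sox10 was at 0.222 ± 0.104 CPM (SD, n = 3) in Cap-L+2D and 0.260 ± 0.088 CPM (SD, n = 3) in Cap-B+2D, and Cdh19 at 0.335 ± 0.086 and 0.221 ± 0.085 CPM (SD, n = 3 each), with overlapping libraries for both genes. Erbb3 was higher in the buccal culture by a log2 fold change of 2.93 (standard error 0.051, adjusted p = 1.71e-24). S100b was lower there by -2.99 (standard error 0.14, adjusted p = 6.17e-16) and Fabp7 by -1.74 (standard error 0.23, adjusted p = 5.31e-07). Foxd3 held 11 counts in all in Cap-L+2D and passed the filter only through Cap-B+2D, so it had to differ, and its fitted log2 fold change of 2.54 (standard error 0.41) is a description. The libraries of the sides did not overlap for these 4 genes, but the share of all genes without overlap was not counted. The Fabp7 call was lost when all 24 libraries shared 1 fit (adjusted p = 0.22). Gldn (-0.32, adjusted p = 0.013) and Mbp (-0.31, adjusted p = 0.026) stayed under the fold threshold. With 2 members called higher, Foxd3 included, and 2 lower, the calls over all 21195 genes tested were 12.5% in each direction. Of the 30 other glial genes tested, 10 were higher and 7 lower, with Adgrg6 (2.23), Gap43 (2.05), Gfap (1.32) and Ngfr (-0.92) leading the precursor and immature Schwann genes. All 10 skeletal muscle genes and 8 of 11 neuron genes were called higher in Cap-B+2D, while 8 of 10 epithelium genes and 7 of 9 tested cartilage genes were called lower. Their part was not tested.

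The interaction of side with culture, over 12 libraries, was called for 5 members. The buccal excess grew for Erbb3, by 1.61 (standard error 0.084, adjusted p = 9.77e-16). It turned for Fabp7, by -2.59 (standard error 0.30, adjusted p = 2.58e-08). The called terms of Cdh19, -1.85 (standard error 0.51), and of Sox10, -1.38 (standard error 0.45), are descriptions. Both genes were too low in culture to pass the filter and were tested through the uncultured libraries. The lingual excess of S100b was larger after culture, with a term of -1.42 (standard error 0.24, adjusted p = 2.08e-05). The Sox10 term rested on cultured libraries of 3 to 11 counts and was not called without Cap-L+2D replicate 3 (-0.99, adjusted p = 0.22). When all 24 libraries shared 1 fit, the terms of Fabp7 (adjusted p = 0.22) and Sox10 (adjusted p = 0.16) were not called. Foxd3 (1.25, adjusted p = 0.059), Gldn (-0.14, 95% interval -0.67 to 0.39) and Mbp (-0.27, 95% interval -0.57 to 0.03) were not called. Over all 22098 genes tested, 16% were called toward the buccal part and 19.5% toward the lingual part.

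Cultured parts were also set against the bell stage parts, which had developed in the embryo, in fits that share these libraries with the comparisons above. In the lingual part 6 members were lower in culture and 0 higher, where 16.8% of the 21425 genes tested were called lower and 14.4% higher. In the buccal part 7 members were lower and 1 higher, where 16.3% of 21992 were called lower and 15.5% higher. The medians were -1.22 and -1.98 over the members, and -0.01 in both parts over all genes. S100b was lower by -1.59 and -2.97 and Mbp by -1.03 and -1.15 in the lingual and buccal parts, each called, and buccal Foxd3 by -1.46, also called. Sox10 (-4.47 and -5.47), Cdh19 (-1.40 and -3.44) and lingual Foxd3 (-3.00) are among the members counted as lower. They were tested through the uncultured libraries, so they had to be lower, and their values are descriptions. Erbb3 was lower in the lingual part (-0.62, adjusted p = 1.66e-08) and higher in the buccal part (1.12, adjusted p = 1.08e-21). Gldn, at 5.40 to 6.33 CPM in Cap-L+2D and 6.44 to 7.86 CPM in Bell-L, differed by -0.33, under the fold threshold (adjusted p = 0.007), and by -0.99 in the buccal part (standard error 0.093, adjusted p = 4.42e-11). Fabp7 was not called in the lingual part (-0.34, 95% interval -0.68 to -0.01) and was lower by -2.50 in the buccal part (adjusted p = 1.88e-12). Of the 10 epithelium genes, 9 were called lower in culture in each part, with medians of -1.16 and -3.46, and 9 and 10 of the 10 skeletal muscle genes were called higher. Neuron genes were called higher for 5 and lower for 2 of 10 tested in the lingual part, and higher for 8 of 11 in the buccal part. The part of these cell types was not tested.

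The order of the group means summarised these patterns member by member. Sox10 was highest in Cap-B (12.6 ± 0.41 CPM, SD, n = 3), then Bell-B (11.6 ± 0.34), without overlap of their libraries. Bell-L (5.07 ± 0.63) and Cap-W (4.33 ± 0.093) followed without overlap, the libraries of Cap-L (4.32 ± 0.36) overlapped both, Bell-W (2.64 ± 1.5) came next, and the cultures were last. For Erbb3 the order was Cap-B+2D, Bell-B, Cap-B and Bell-L, each separate from the one before it, followed by Cap-W (15.6 ± 3.2 CPM), Bell-W (13.6 ± 7.1), Cap-L+2D (12.1 ± 0.24) and Cap-L (11.8 ± 0.45), in which neighbours overlapped. S100b ran from Bell-L (23.2 ± 0.18 CPM) and Bell-W (17.0 ± 0.78) to Cap-L+2D (7.88 ± 0.40) and Bell-B (7.60 ± 1.1), which overlapped, then Cap-L (3.02 ± 0.18), Cap-B (0.993 ± 0.10) and Cap-B+2D (0.990 ± 0.098), which overlapped, and Cap-W (0.611 ± 0.31). Gldn ran from Bell-W (13.3 ± 3.3 CPM) through Bell-B, Bell-L, Cap-L+2D and Cap-B+2D to the cap stage parts, with no overlap between neighbours before Cap-L and Cap-B, and Cap-W (0.103 ± 0.14) was last. Foxd3 and Cdh19 were highest in Cap-B and Bell-B, at group means between 2.04 and 2.40 CPM whose libraries overlapped, and lowest in Cap-L+2D (Foxd3, 0.127 ± 0.075 CPM) and Cap-B+2D (Cdh19, 0.221 ± 0.085 CPM). Mbp ran from Bell-L (9.29 ± 0.56 CPM) through Bell-W (8.50 ± 4.2) and Bell-B (8.18 ± 0.60) to Cap-L (5.41 ± 0.46), Cap-B (5.20 ± 0.11), Cap-W (4.72 ± 0.37), Cap-L+2D (4.60 ± 0.35) and Cap-B+2D (3.75 ± 0.17). Leaving out Bell-W, whose mean rests on 1 library, Fabp7 was highest in Bell-B (2.98 ± 0.25 CPM) and Cap-B (2.95 ± 0.62), which overlapped, and lowest in Cap-B+2D (0.538 ± 0.14).

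The correlations of the members across libraries are a description of 24 points that share groups, composition and depth. On log2(CPM + 0.5), Sox10 had a Pearson r of 0.86 with Cdh19 and 0.77 with Foxd3, S100b had 0.80 with Gldn, and Sox10 had -0.05 with Erbb3, -0.01 with S100b and -0.28 with Gldn. Among 17951 genes with a mean of at least 1 CPM, the genes most like Sox10 included Gpr17 (r = 0.98), a receptor known from oligodendrocyte precursors, Gucd1 (0.92), Sorl1 (0.91) and Zfp697 (0.91). The 5 most like Erbb3 were Camk2a (0.97), Tead4 (0.96), Ano5 (0.95), Lrrc3b (0.95) and 1110002E22Rik (0.95), of which Tead4 and Ano5 are known from muscle. Gldn was most like Dhrs3 (0.98), Pik3ap1 (0.96), Nid1 (0.96), Ndp (0.96) and Apod (0.95), and S100b most like Rasgrf2 (0.96), Mpp1 (0.96), Rasgrp1 (0.95), Ube2l6 (0.95) and Pon2 (0.95). For Fabp7 the list was led by Ttyh1 (0.86) and Slc6a11 (0.83), whose r fell to 0.67 and 0.25 without Bell-W replicate 3. Without that library the r of Fabp7 with Sox10 rose from 0.42 to 0.68, and with Cdh19 from 0.16 to 0.74.

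Over the 24 libraries Erbb3 had r = 0.85 against the summed level of the muscle markers, while Sox10 gave -0.25. On the lingual side Erbb3 did not follow them in culture. The muscle sum was 17.0 to 18.7 CPM in Cap-L and 263 to 282 CPM in Cap-L+2D, and the log2 fold change of Erbb3 was 0.04. Against the epithelium markers r was 0.82 for Mbp, 0.69 for Fabp7, 0.61 for S100b, 0.55 for Sox10 and -0.60 for Erbb3, and without Bell-W replicate 3, a setting chosen after the data were seen, it was 0.76, 0.59, 0.58, 0.60 and -0.68. Mbp gave -0.22 against muscle. Among 10 melanocyte genes, a lineage that shares Sox10, 6 had group means under 0.5 CPM in every group. The summed level of the list, carried by its other genes, ran from 35.0 CPM in Cap-B to 73.5 CPM in Bell-W. The part of these cell types in the values of the members was not tested.

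**Figure D4:**
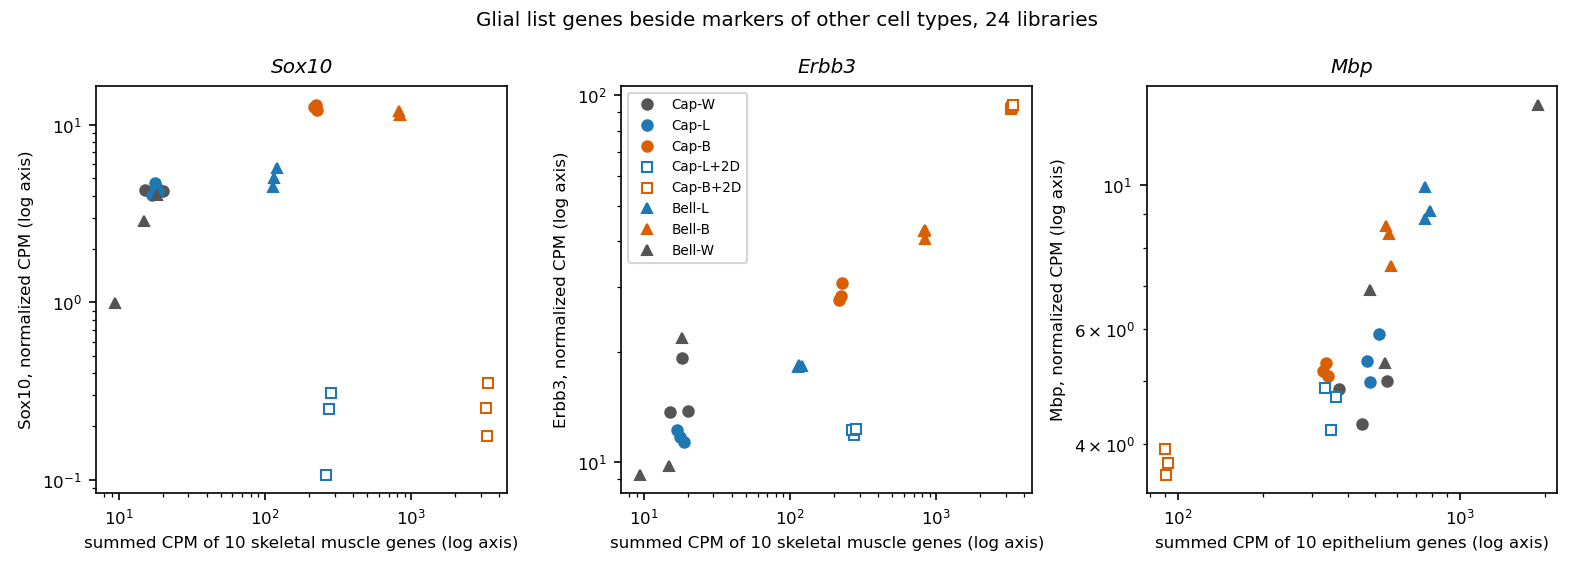
Normalized CPM of Sox10 and Erbb3 against the summed CPM of 10 skeletal muscle genes, and of Mbp against the summed CPM of 10 epithelium genes, all axes log; each point is 1 of the 24 libraries, shaped and coloured by group. Erbb3 climbs with the muscle sum among the buccal groups, the cultured libraries (open squares) lie lowest for Sox10, and Bell-W replicate 3 is the library at the upper right for Mbp.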

How the data were processed

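The authors deposited 1 table of counts of read pairs per gene, without normalization, for all 24 libraries. Per the file headers it was made with featureCounts 2.0.0 in paired mode over exons of Ensembl release 107 (GRCm39), without regard to strand, leaving out pairs that mapped to several places or genes, so that overlapping and near-identical genes are undercounted. The submitters' processing notes name FastQC 0.12.1, Trimmomatic 0.39, Bowtie 1.2.3, Subread 2.0.3 and DESeq2 1.40.2, while the methods name STAR, and the labels and the methods name different library kits. Gene symbols were assigned by identifier to 56017 of 56748 genes. The list gene Nrg1 had a second, short identifier that was set aside.

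The members and all gene lists were chosen with earlier results of these data known. Named beside the members are, per list and contrast, up to 4 called genes with the largest absolute log2 fold change, and the 5 genes with the highest correlation with Sox10 and with each member whose correlation with Sox10 was under 0.5. Results for 2 of these named genes are not reported here, and the counts over lists and all genes include them.

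Computation was in R 4.3.3. Counts of the libraries of each comparison were fitted with edgeR 4.0.16 (TMM, filterByExpr, quasi-likelihood test), 6 libraries for a side or undivided comparison, 9 of 1 side for stage and culture, and 12 for interactions. P-values were adjusted by Benjamini-Hochberg over all genes tested. Genes were called where the adjusted p was under 0.05 and the log2 fold change exceeded 0.5 in size, and for interactions on the p alone. Intervals of fold changes are 95% intervals from the standard error, and ratios of counts have exact intervals that, like the floor of 3 counts, cover counting error only: duplicate reads from PCR were not marked. The pipeline was tested on simulated data. Alternatives were RLE normalization, DESeq2 1.42.0, no filter, a minimum of 10 counts in each library, a single fit of all 24 libraries, a block for the replicate number, the 100 most abundant genes left out, and each library left out in turn. Promoters came from RefSeq (GRCm38.p6).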

Additional observations from a re-analysis of the deposited data

Results flagged for a closer look

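These 6 values drew attention because the interaction term of edgeR, for a difference between the buccal and lingual parts that changes with stage or with culture, was called. With stage this held for Sox10, at -0.38 on the log2 scale (standard error 0.13, adjusted p = 0.026). With culture it held for Erbb3 at 1.61, for Fabp7 at -2.59, for Cdh19 at -1.85, for S100b at -1.42 and for Sox10 at -1.38. Cdh19 and Sox10 were tested there through the uncultured libraries, since they were too low in culture to pass the filter. Their terms with culture are descriptions. The Fabp7 and Sox10 terms with culture were not called when all 24 libraries shared 1 fit (adjusted p = 0.22 and 0.16). A negative value means that the buccal part lost ground to the lingual one, and for S100b that the lingual excess grew. The cultured libraries behind the Sox10 and Cdh19 terms held 3 to 15 counts each of these genes, and the muscle markers, which rose in culture on both sides, were highest in the buccal cultures where Erbb3 was highest. Their part in these values was not tested.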

How the results depend on the processing

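Of 1439 log2 fold changes of the members recomputed under the alternatives, 1384 kept their direction and side of the threshold, 22 fell short of it, 12 passed it and 21 changed sign, all of the last for values that had not been called and under single left-out libraries. Counts of called members moved by more than 1.5 times in few settings. With a minimum of 10 counts in each library, which removes low members from the test, they were 0 for stage in the undivided mesenchyme (2 as reported), 2 for culture (5) and 3 for culture against the bell stage (6) in the lingual part, and 3 for side by culture (5). In a single fit of all 24 libraries they were 6 for stage in the undivided mesenchyme, adding Fabp7, Foxd3, Mbp and Sox10, and 3 for side by culture. For side by stage, where 1 was reported, DESeq2, no filter and the single fit each gave 0, and left-out libraries gave 0 to 1. The causes were not tested.

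With single libraries left out, the values that changed sign ranged as follows on the log2 scale. Between the parts at the cap stage, Gldn ran from -0.39 to 0.006 and Mbp from -0.0887 to 0.0249. With stage, Erbb3 in the undivided mesenchyme ran from -0.71 to 0.0189, lingual Foxd3 from -0.48 to 0.29 and Cdh19 from -0.25 to 0.13, and buccal Fabp7 from -0.0742 to 0.20 and Cdh19 from -0.033 to 0.35. With culture, lingual Fabp7 ran from -0.0023 to 0.21 and buccal S100b from -0.13 to 0.0154. The interactions ran from -0.54 to 0.23 for Foxd3 and -0.13 to 0.0639 for S100b with stage, and from -0.33 to 0.0689 for Gldn with culture.

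Same-numbered libraries did not deviate together, with mean correlations over 17951 genes between -0.085 and 0.084 per comparison and not every pair over 0.1 in any of them, so the numbers were not taken as pairs. With the replicate block, the counts of called members were 6 and 5 between the parts at the cap and bell stages, 7 for culture in the buccal part and 5 for side by culture, as without it. Depth limits Foxd3, Cdh19, cultured Sox10, and Gldn and S100b in Cap-W most, since several of these libraries held under 10 counts.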

Other observations

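The undivided libraries did not always lie between the parts of the same stage. At the cap stage Fabp7 measured 0.841 to 1.06 CPM in Cap-W, against at least 1.40 CPM in every library of the parts, S100b at most 0.860 CPM against at least 0.878 CPM, and Gldn at most 0.265 CPM against at least 0.552 CPM. Sox10 in Cap-W, at 4.25 to 4.43 CPM, lay within the range of Cap-L and below Cap-B. At the bell stage Gldn was higher in Bell-W, at 10.1 to 16.7 CPM, than in any library of the parts, and Sox10, at 0.991 to 4.05 CPM, was lower than in any of them. These differences were not tested.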
